A study of Mus musculus with 5 samples.

Results

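The set examined here is the noncoding RNA of 6 genes of the sperm tail and of sperm energy metabolism: Smcp, Gapdhs, Akap3, Akap4, Spata18 and Odf2. Members were taken by identifier from the lncRNA table (XLOC_120320 at Smcp, XLOC_165022 and XLOC_165023 at Gapdhs, XLOC_162710 at Akap3, XLOC_149329 at Spata18) and by host gene symbol from the circRNA table. The rule gave 5 of 16356 lncRNA loci, which hold 6 of 33057 assembled transcripts, and 5 of 11957 circRNAs. The lncRNA loci lie at 4 of the 6 genes, all 5 circRNAs come from Odf2, and no value is reported here for Akap4. A locus is named for the gene it lies at, and its value is what the authors assigned to the noncoding transcript there.

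Testes came from male mice of strain C57/BL6J, aged 10 weeks. The triptolide group received a daily dose of 50 µg per kg into the stomach and the control group received saline. Tissue was taken at 35 days, with 6 mice per group by the labels. The 5 RNA-seq libraries are 2 control and 3 triptolide, and whether each is 1 animal or a pool is not stated, so the p-values reflect no more than how these libraries vary. Triptolide is a diterpenoid of the vine Tripterygium wilfordii, known to bind the XPB subunit of the transcription factor TFIIH and to reduce male fertility. In whole testis, fewer cells of a type and less RNA per cell cannot be told apart.

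The sperm tail is built late in spermatid development, when a core of microtubules is wrapped by outer dense fibres, by a helix of mitochondria in the midpiece and by a fibrous sheath further down. Smcp encodes a cysteine-rich protein of the mitochondrial capsule of the midpiece. Gapdhs encodes the sperm form of glyceraldehyde-3-phosphate dehydrogenase, a glycolytic enzyme bound to the fibrous sheath. Akap3 and Akap4 encode anchors of protein kinase A that build the fibrous sheath. Odf2 encodes a protein of the outer dense fibres and of centrosomes. Spata18 (also Mieap) encodes a protein of mitochondrial quality control. An antisense lncRNA is read from the strand opposite to its partner gene, and a circRNA is closed by joining the end of an exon to the start of an earlier one.

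The 4 antisense transcripts shared a position: each began inside its partner gene and ran backwards across the gene's start. The Smcp antisense transcript (chromosome 3, 92587926 to 92591212, plus strand) began 1147 bases inside Smcp and ended 2139 bases upstream of its start. The Akap3 antisense transcript (chromosome 6, 126852473 to 126854359, minus strand) began 1261 bases inside the gene and ended 625 bases upstream. The Spata18 antisense transcript (chromosome 5, 73650956 to 73651816, minus strand) began 436 bases inside and ended 424 bases upstream. Gapdhs has 2 starts in RefSeq, and its antisense transcript (chromosome 7, 30738002 to 30744606, plus strand) crossed both, ending 925 bases upstream of the outer start. The intronic transcript of Gapdhs (chromosome 7, 30740358 to 30742550, plus strand) lay between those starts and crossed neither. It began 3323 bases and ended 1131 bases inside the gene, counted from the outer start. Among all antisense transcripts whose partner has a RefSeq start on the other strand, 1432 of 4219 (33.9%) covered such a start. The deposited notes name a human build, but 9708 of 9796 circRNAs (99.1%) fell inside their host gene in the mouse assembly GRCm38.p6, so positions were set against that assembly. For host genes under 20000 bases, 376 of 404 circRNAs (93.1%) did. This check used circRNAs only. All 6 member transcripts had 2 exons and were matched to no known lncRNA by the authors.

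**Figure D1:**
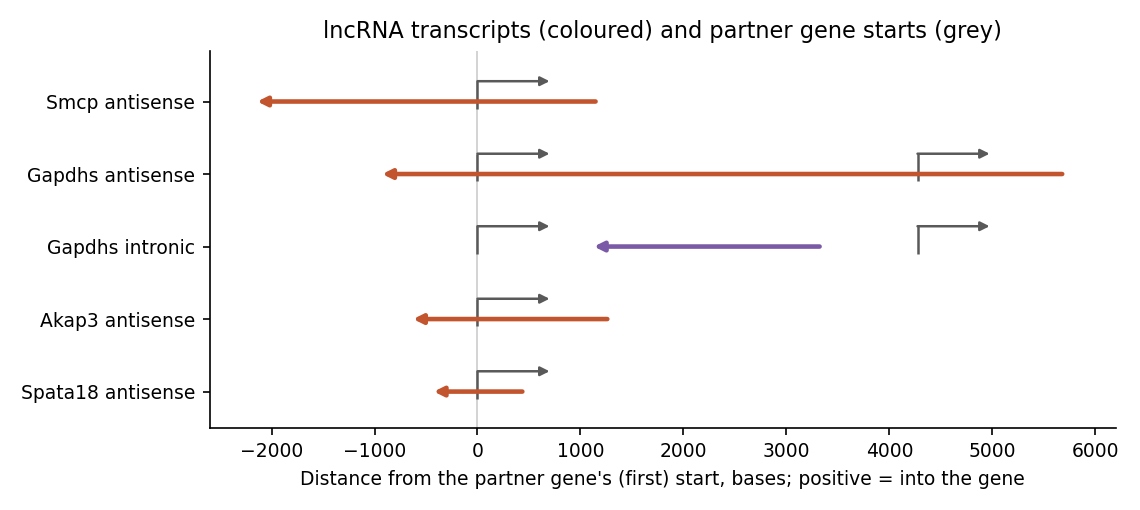
Position of the member lncRNA transcripts (coloured arrows, antisense in orange and intronic in purple) along the distance in bases from the start of the partner gene (grey arrows, x axis), with positive values inside the gene. The 4 antisense transcripts cross the start of their partner, with upstream ends between 424 and 2139 bases away, and the intronic Gapdhs transcript lies between the 2 Gapdhs starts.

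Because those transcripts run across the partners' promoters, the promoter sequences are shown, as RefSeq gives them for GRCm38.p6. All 6 genes had an entry, with 11 windows of 300 bases in total (250 before and 50 after a start). The lines below give the 250 bases before the start, 5′ to 3′ on the gene's strand, with capitals for the 8-base word TGATGTCA or its reverse complement TGACATCA. Positions are chr3:92589074-92589323 (minus strand) for Smcp, chr7:30743682-30743931 (minus) for the outer and chr7:30739408-30739657 (minus) for the inner start of Gapdhs. They are chr6:126852848-126853097 (plus) for Akap3 and chr5:73651130-73651379 (plus) for Spata18.
Smcp: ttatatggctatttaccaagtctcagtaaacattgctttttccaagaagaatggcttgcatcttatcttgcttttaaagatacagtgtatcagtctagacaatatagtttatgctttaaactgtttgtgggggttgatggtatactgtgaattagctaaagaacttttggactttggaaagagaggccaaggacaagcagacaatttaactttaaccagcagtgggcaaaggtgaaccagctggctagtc
Gapdhs outer start: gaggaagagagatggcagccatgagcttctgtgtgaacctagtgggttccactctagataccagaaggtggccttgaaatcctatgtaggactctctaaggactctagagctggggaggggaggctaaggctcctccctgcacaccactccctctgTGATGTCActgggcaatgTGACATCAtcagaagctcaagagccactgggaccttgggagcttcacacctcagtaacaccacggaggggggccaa
Gapdhs inner start: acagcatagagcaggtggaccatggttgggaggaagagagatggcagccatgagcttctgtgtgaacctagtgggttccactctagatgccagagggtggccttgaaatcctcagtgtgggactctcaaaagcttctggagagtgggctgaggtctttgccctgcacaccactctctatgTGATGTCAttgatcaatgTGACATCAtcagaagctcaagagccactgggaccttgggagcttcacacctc
Akap3: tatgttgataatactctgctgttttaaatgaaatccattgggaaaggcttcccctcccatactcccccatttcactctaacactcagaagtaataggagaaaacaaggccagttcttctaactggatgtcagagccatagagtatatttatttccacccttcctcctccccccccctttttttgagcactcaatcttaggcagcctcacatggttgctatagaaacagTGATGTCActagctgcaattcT
Spata18: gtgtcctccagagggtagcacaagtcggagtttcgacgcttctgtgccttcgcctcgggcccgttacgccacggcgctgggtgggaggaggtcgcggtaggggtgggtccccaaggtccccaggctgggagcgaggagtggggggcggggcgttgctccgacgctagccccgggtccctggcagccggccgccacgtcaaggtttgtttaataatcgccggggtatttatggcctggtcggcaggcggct
TGATGTCA is a variant, by 1 base, of TGACGTCA, the palindromic cAMP response element, which is known as a binding site of the CREB and CREM factors. The word was chosen after these windows had been read. Searched on both strands over the 300 bases, it was found in windows of 4 of the 6 genes (Smcp, Gapdhs, Akap3 and Akap4), and in 1130 of all 27025 genes with a window (4.18%). In Gapdhs each start had it in both orientations, beginning 94 and 76 bases before the outer start and 70 and 52 before the inner. Akap3 had it beginning 22 bases before its start and again 1 base before it, which is why the line for Akap3 ends in a capital. Of all windows, 75 of 32851 (0.228%) held it 2 or more times. TGACGTCA itself was in no window of the 6 genes and in 2.03% of all genes. A match is a description of the letters and not a measured site.

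The neighbourhoods of the word are shown for Smcp (25 bases after the start, chr3:92589031-92589060, minus), Akap3 (chr6:126853065-126853094, plus) and Akap4 (chrX:7067469-7067498, plus), because those of Akap3 and Akap4 look alike.
Smcp: ggagagtattaTGATGTCAtaaaagagctg
Akap3: tatagaaacagTGATGTCActagctgcaat
Akap4: tatagaaacagTGATGTCAtgaattttaag
Akap3 and Akap4 share a run of 20 bases there, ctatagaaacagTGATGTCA, and 2 of 32851 windows hold it. The 2 Gapdhs windows share an identical run of 107 bases. Spata18 and Odf2 had neither word. Their windows were richer in G and C, at 67.6% for Spata18 and 68.4% to 72.8% for the 4 Odf2 windows over the 250 bases. The share was 38.0% for Smcp, 42.8% for Akap3, 37.2% and 44.4% for Akap4, and 54.8% and 52.4% for the outer and inner start of Gapdhs.

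Expected counts of all lncRNAs summed to 947298 to 1071012 per library, and the circRNA values correspond to 32846 to 44340 junction reads. Columns with a repeated header are called triptolide A and B for lncRNAs and A, B and C for circRNAs, and a letter in one table does not name the same library in the other. From the mRNA values, fragments averaged 283 ± 8.13 bases (SD, n = 2) in the controls, against 260 ± 3.76 (SD, n = 3) after triptolide, and the part of this gap in the results was not tested. As a check of the tissue, SRPBM (scaled junction reads) was summed over host genes of meiotic markers, with circles at 9 of 12 listed genes. The controls reached 2343 and 3016, against 2171 to 2482 after triptolide. Most of each sum came from Sycp1, at 2110 and 2690 against 2036, 2283 and 1931 SRPBM (triptolide A, B and C). The sums therefore say little about the other meiotic markers. Round spermatid markers summed to 1244 and 1607 against 1046 to 1533 SRPBM, with circles at 3 of 11. No circle came from a Sertoli, smooth muscle, endothelial or epididymal marker. Some lncRNA sums at markers of other cell types did not overlap between the groups. The same held at 19.7% of tested loci upward and 18.3% downward. The smooth muscle sum (1 of 5 genes) was 0 to 1.0 CPM in the controls and 3.9 to 7.4 after triptolide, and the epididymal sum (1 of 5 genes) was 1.0 and 1.9 against 4.2 to 5.8 CPM. Sertoli markers (2 of 10 genes) had 0.9 and 1.0 against 1.1 to 9.4 CPM. The smooth muscle, epididymal and Sertoli loci were too low to pass the filter, so none was tested. The shares of 19.7% and 18.3% therefore do not cover loci this low. Star, a Leydig cell gene of steroid synthesis, was the only one of 8 Leydig markers with a locus. It had 52.9 and 57.9 against 33.8 to 42.7 CPM (adjusted p = 0.28, edgeR). The endothelial sum overlapped between groups, and the immune list had 0 loci. The part of these differences in the member results was not tested.

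At Smcp, the antisense locus rose after triptolide. It had 13 and 9 expected counts in control 1 and 2 and 22, 36 and 55 in triptolide A, B and 3. As CPM, which scales counts to the library's total of lncRNA counts, these are 13.5 and 8.40 in control and 23.2, 34.0 and 53.4 in triptolide. All 3 triptolide libraries lay above both controls, and triptolide 3 was the highest. The means were 10.9 ± 3.58 CPM (SD, n = 2) and 36.9 ± 15.3 CPM (SD, n = 3), a 3.37-fold difference. By edgeR (quasi-likelihood, 6888 loci) the log2 fold change came to 1.76 ± 0.435 (SE) at adjusted p = 0.0102. Of those loci 7.27% passed in either direction and 5.01% rose, and 2.09% had a larger log2 fold change than the Smcp locus. Groups without overlap in this direction were found at 19.7% of the tested loci. The call was lost without control 2 (adjusted p = 0.058, edgeR) or without triptolide 3 (adjusted p = 0.113, edgeR), and in a test of single transcripts (adjusted p = 0.401, edgeR), which called 0 of 13534. In that test 9.89% of transcripts had an unadjusted p under 0.05, the Smcp transcript (0.0194) and the Gapdhs intronic transcript (0.0333) among them. Each of these loci holds 1 transcript, so its counts were the same in both tests.

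**Figure D2:**
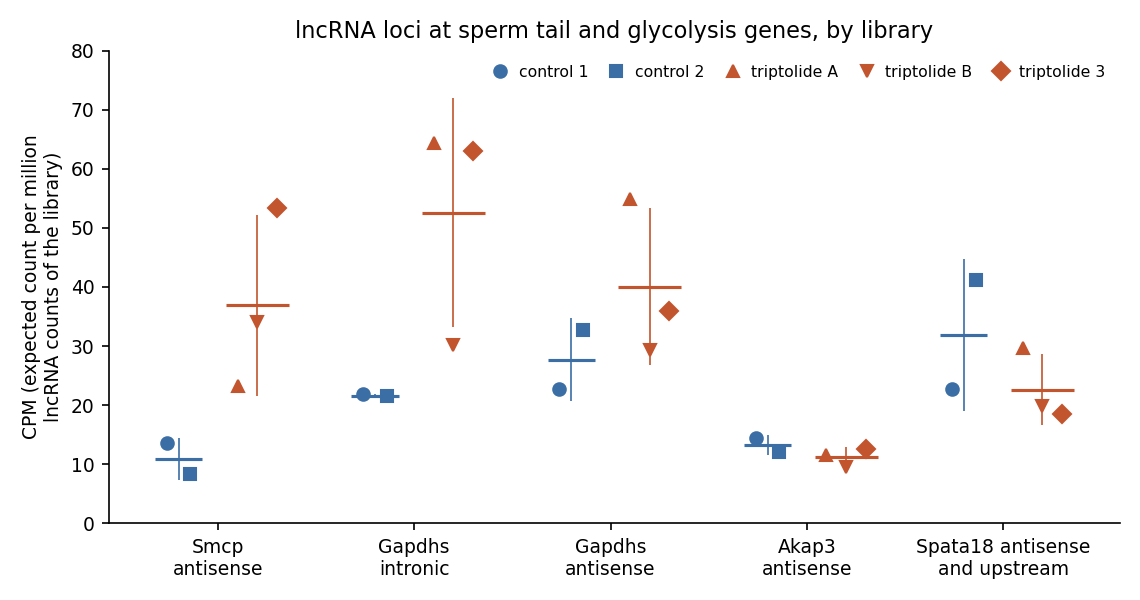
CPM (y axis) of the 5 member loci in each library, with controls in blue and triptolide in orange, horizontal lines for group means and vertical lines for ± 1 SD (n = 2 and n = 3). The groups do not overlap at the Smcp antisense locus (8.40 to 13.5 against 23.2 to 53.4 CPM) and the Gapdhs intronic locus (21.5 to 21.8 against 30.2 to 64.4 CPM), and they overlap at the other 3.

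At Gapdhs, the intronic locus rose and the antisense locus around it did not pass the test. The intronic locus had 21 and 23 expected counts in control 1 and 2 and 61, 32 and 65 in triptolide A, B and 3. As CPM these are 21.8 and 21.5 against 64.4, 30.2 and 63.1. The controls were nearly equal, while triptolide B stood well below the other triptolide libraries and only a little above the controls. The means were 21.6 ± 0.205 CPM (SD, n = 2) and 52.6 ± 19.4 CPM (SD, n = 3), a 2.43-fold difference with a log2 fold change of 1.28 ± 0.36 (SE) and adjusted p = 0.027 in edgeR. Of 214 intronic loci tested, 5.61% rose. The adjusted p was above 0.05 in edgeR with any single library left out except triptolide B, reaching 0.13 without triptolide 3, and was 0.073 with DESeq2 and 0.472 for single transcripts in edgeR.

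Around it, the antisense locus had 22 and 35 expected counts in control 1 and 2 and 52, 31 and 37 in triptolide A, B and 3. As CPM these are 22.8 and 32.7 against 54.9, 29.3 and 35.9, and triptolide B lay within the controls. In edgeR the log2 fold change of 0.52 ± 0.35 (SE) gave adjusted p = 0.42. The intronic locus lies wholly inside it on the same strand, so reads of the 2 loci cannot be assigned for certain. Summed into 1 locus, they had 44.6 and 54.2 against 119, 59.5 and 99.1 CPM. The sum differed in the same direction, with a log2 fold change of 0.90 and adjusted p = 0.054 in edgeR. The libraries keep the strand, but the strand setting of the counting is not stated in the labels. Reads from a partner gene and from the locus antisense to it therefore cannot be told apart.

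A longer known lncRNA on the same strand, Tmem147os (chromosome 7, 30729579 to 30745929), covers both Gapdhs loci. Its CPM were 58.0 and 69.1 in the controls and 60.2, 69.0 and 57.3 in the triptolide libraries, so the groups overlapped. edgeR gave it a log2 fold change of -0.035 ± 0.265 (SE) and adjusted p = 0.96. The difference between the Gapdhs intronic locus and Tmem147os was not tested. Gm26935, another known antisense lncRNA there, had 2 counts in triptolide B and 0 in the other 4 libraries.

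**Figure D3:**
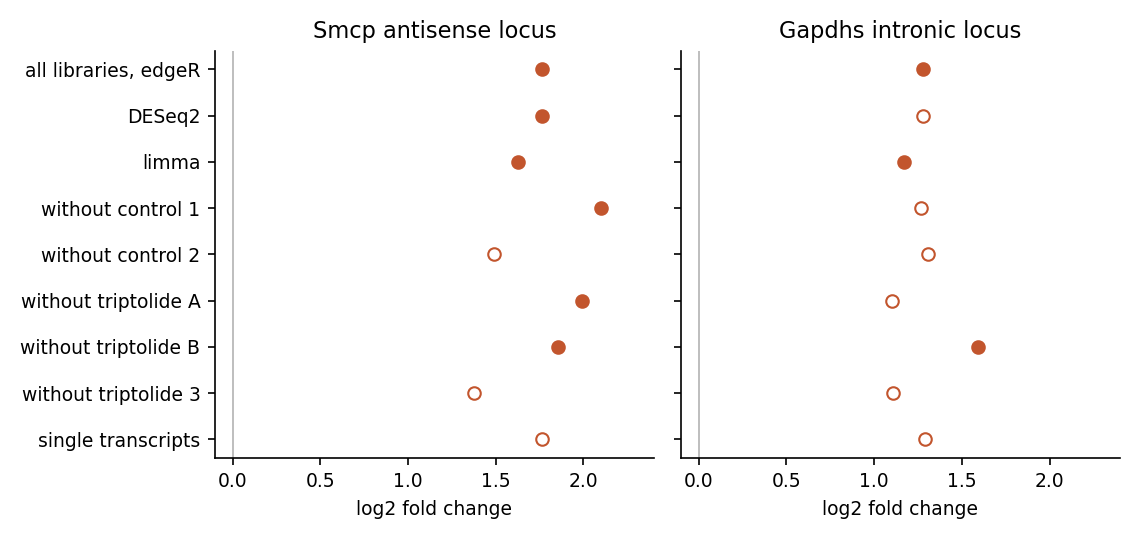
Log2 fold change (x axis) of the Smcp antisense locus (left) and the Gapdhs intronic locus (right) with all libraries, with other tools, with 1 library left out and for single transcripts. Filled points have an adjusted p under 0.05. The 18 points lie above 0, between 1.38 and 2.10 for Smcp and between 1.10 and 1.59 for Gapdhs, and 3 Smcp and 6 Gapdhs points are open.

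At Akap3, the antisense locus was low and did not pass the test. It had 14 and 13 expected counts in control 1 and 2 and 11, 10 and 13 in triptolide A, B and 3. As CPM these are 14.5 and 12.1 against 11.6, 9.45 and 12.6, and the groups overlapped. A log2 fold change of -0.24 ± 0.55 (SE) gave adjusted p = 0.85 in edgeR, and the SE exceeds the difference itself. With 61 counts over the 5 libraries, this was the thinnest of the 5 loci, and only 14.6% of tested loci had a lower mean CPM.

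The Spata18 locus holds an antisense transcript across the gene's start and a second transcript further upstream, and it did not pass either. Its CPM were 22.8 and 41.1 in control 1 and 2, against 29.6, 19.8 and 18.5 in triptolide A, B and 3. The controls differed from each other by more than the group means did, and triptolide A lay between them. edgeR's log2 fold change of -0.51 ± 0.375 (SE) had adjusted p = 0.46, and without control 2 it was 0.02. The antisense transcript had 15 and 20 expected counts in control and 13, 15 and 4 in triptolide, with triptolide 3 the lowest. The second transcript (73648576 to 73650713, minus strand), of intergenic class and 667 bases from the start of Spata18, had 7 and 24 against 15, 6 and 15. Neither passed as a single transcript (adjusted p = 0.81 and 0.95, edgeR).

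Of the 5 member loci, 2 rose and 0 fell, and their median log2 fold change was 0.52. Over all 6888 tested loci the median was 0.00, with 5.01% rising and 2.26% falling. With so few loci chosen with earlier results known, that count is a description only. The 2 that rose, at Smcp and Gapdhs, both lie on the strand opposite to their partner gene, as does every member locus. These 2 differed in the authors' class and in position. The former is classed antisense and crosses its partner's start, and the latter is classed intronic and does not.

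Levels of different transcripts were compared per kilobase of the effective length that the authors' control FPKM imply. That length was 2731 bases for the Smcp antisense transcript, or 83.1% of its span, and 1803 bases for the Gapdhs intronic transcript, or 82.2%. For the Gapdhs antisense, Spata18 antisense, Spata18 upstream and Akap3 transcripts it was 30.8%, 32.6%, 31.3% and 10.6% of the span. An effective length is shorter than the exons by about a fragment, which weighs most on short transcripts, here Akap3 (200 bases) and Spata18 antisense (281 bases). In control, the order of levels ran from Akap3, at 66.6 ± 8.38 CPM per kilobase (SD, n = 2), and the Spata18 antisense transcript, at 60.9 ± 7.88, down to the others. These 2 differed by less than their spread. The Spata18 upstream transcript stood at 22.1 ± 16.0, the Gapdhs antisense at 13.6 ± 3.43 and the Gapdhs intronic transcript at 12.0 ± 0.113 CPM per kilobase, and these 3 overlapped. The Smcp antisense transcript was the lowest, at 4.0 ± 1.31 CPM per kilobase. In triptolide it reached 13.5 ± 5.60 CPM per kilobase (SD, n = 3) and the Gapdhs intronic transcript 29.2 ± 10.7. Akap3 had a mean of 56.1 ± 8.11 and the Spata18 antisense transcript one of 37.7 ± 20.7, and the libraries of these 2 overlapped. These levels use lengths from the controls, whose fragments were longer.

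The loci most like the 2 that rose were sought over the 5 libraries, by the root mean square difference of centred log2(CPM + 1) among 6303 other loci of at least 10 CPM. For Smcp they were antisense to Gm26880 (0.203), to Chmp7, a subunit of the ESCRT-III membrane complex (0.206), and at Afap1, an actin filament protein (0.222). The Chmp7 locus stood at 20.7 and 16.8 CPM in control 1 and 2, against 39.1, 46.3 and 68 in triptolide A, B and 3, the same order of libraries as at Smcp. For the Gapdhs intronic locus they were antisense to Gm21847 (0.12) and to Ptgdr, a prostaglandin D2 receptor (0.125), and the intergenic XLOC_039406 (0.13). The Gm21847 locus stood at 19.1 and 17.7 CPM against 44.4, 25.6 and 52.4 CPM, with triptolide B low as at Gapdhs. The values set beside each other here are descriptions, and none of these loci belongs to the tail or glycolysis lists.

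The 6 genes were set beside other genes of their pathways in 6 lists of 106 genes: fibrous sheath, outer dense fibre, mitochondrial sheath and mitophagy, sperm glycolysis, A-kinase anchoring with protein kinase A, and late spermatid genes. In all, 15 lncRNA loci of these lists were tested, and the 2 that rose, at Smcp and Gapdhs, were both members. None of the other 10 passed in edgeR, 2 of them had an unadjusted p under 0.05 (21.7% of all tested loci did), and their median log2 fold change was -0.13 against 0.00 for all tested loci. By list, 1 of 4 fibrous sheath loci rose, 1 of 5 mitochondrial loci, 1 of 5 glycolysis loci, 0 of 4 kinase loci and 2 of 6 late spermatid loci, and 0 fell in any list. Because the lists share genes, these counts repeat the same 2 member loci. Of all tested loci, 5.01% rose. The outer dense fibre list had 0 lncRNA loci.

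Among those other loci, the nearest to the threshold was antisense to Akap9, which anchors protein kinase A at centrosomes and the Golgi. Its values were 22.8 and 43.9 CPM against 58.1, 59.5 and 50.5 CPM (log2 fold change 0.73 ± 0.32 SE, adjusted p = 0.17 in edgeR). A locus antisense to Socs1 and Tnp2, the latter a transition protein of spermatid chromatin, had 61.2 and 57.9 against 86.6, 76.5 and 102 CPM (adjusted p = 0.18, edgeR). The groups did not overlap at either, as at 19.7% of tested loci in that direction. A locus at Akap13, another kinase anchor, had 125.4 CPM in each control, against 159.3, 158.7 and 173.9 CPM in triptolide (adjusted p = 0.28, edgeR). In glycolysis the 3 loci at other genes had log2 fold changes below 0. Eno4, an enolase of the sperm tail, had an antisense locus at 259 and 215 against 186, 183 and 198 CPM (adjusted p = 0.35, edgeR). The loci antisense to Ldha and Aldoa, of lactate dehydrogenase and aldolase, had log2 fold changes of -0.29 ± 0.27 (SE) and -0.17 ± 0.40 (SE). Klc3, a kinesin light chain that links mitochondria to outer dense fibres, had an antisense locus at 39.4 and 44.8 against 25.3, 31.2 and 32.05 CPM (adjusted p = 0.37, edgeR). Both Eno4 and Klc3 had all triptolide values below the controls, as did 18.3% of tested loci. At Armc12, a protein of mitochondrial sheath formation, the values were 48.7 and 30.8 against 29.6, 31.2 and 49.5 CPM.

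**Figure D4:**
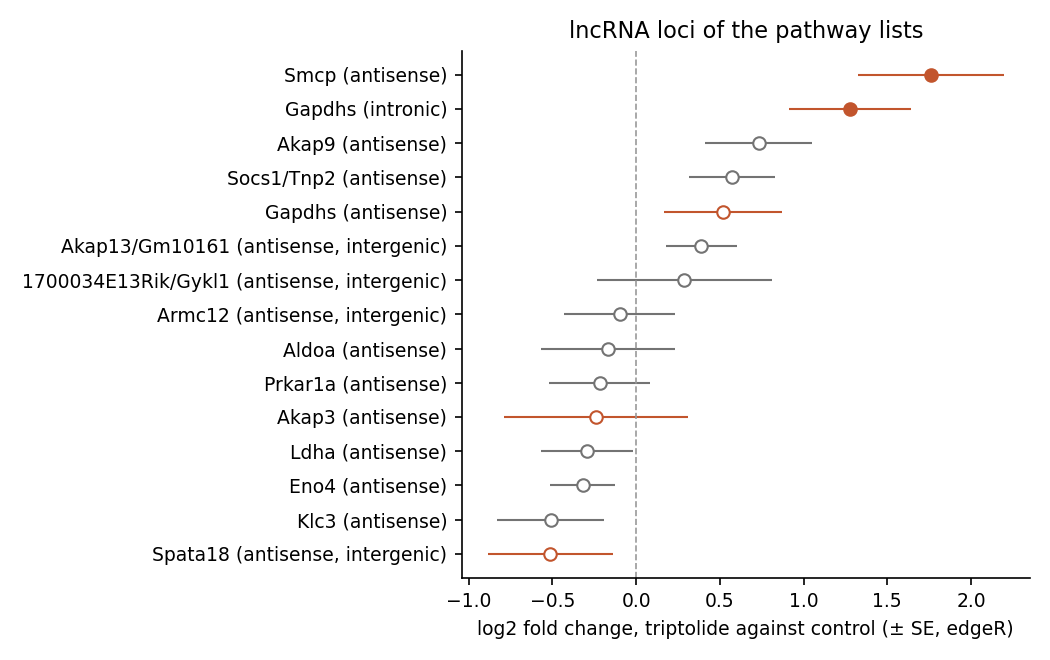
Log2 fold change ± SE (x axis, edgeR, triptolide against control) of the 15 tested lncRNA loci of the 6 lists (y axis), with members in orange, other genes in grey and filled points for an adjusted p under 0.05. The dashed line is the median of all tested loci. The Smcp and Gapdhs intronic loci, at 1.76 and 1.28, stand to the right of the other 13, which lie between -0.51 and 0.73.

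Odf2 was the host of all 5 circles of the set, which lie on chromosome 2 and whose reads are few. Circle values are SRPBM, a count of reads across the back-splice, scaled per library and rounded by the authors, where 1 read is worth 8.25 to 9.5 SRPBM. The circle from 29893444 to 29904107 (10664 bases) had 19, 70 and 43 SRPBM in triptolide A, B and C, or 2, 8 and 5 reads, and was listed at 0 in the controls. It was above 0 in every triptolide library and in neither control, as were 2.24% of the 5457 circles tested, and 6.78% had all triptolide values above both controls. Its log2 fold change on the log2(SRPBM + 16) scale was 1.81 ± 0.72 (SE), with an unadjusted p of 0.036 and adjusted p = 0.68 in limma over 5457 circles, of which 0% passed and 6.6% had an unadjusted p under 0.05. Data were also simulated with 2-fold and 4-fold changes, at 1 fixed spread that was not estimated from these libraries. There this test and that of host genes recovered none of the changed items, so a circle that did not pass may still have changed. The other 4 circles were above 0 in 1 library each, with 2 to 5 reads, and were not tested. Of all circRNAs, 54.4% were likewise above 0 in 1 library.

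Each Odf2 circle had 2 to 15 reads. Of the 5, 4 were above 0 in 1 library each, as were 54.4% of all circRNAs, so these could not appear in both groups. Control 1 had the 2 circles that start at 29892186, one ending at 29904107 with 26 SRPBM and one at 29922371 with 17 SRPBM. Triptolide B alone had those from 29901077 to 29904107 (44 SRPBM) and from 29902232 to 29914266 (17 SRPBM). Control 2 was listed at 0 for all 5. The end at 29904107 was used by 3 of the 5 circles, with starts at 29892186, 29893444 and 29901077.

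**Figure D5:**
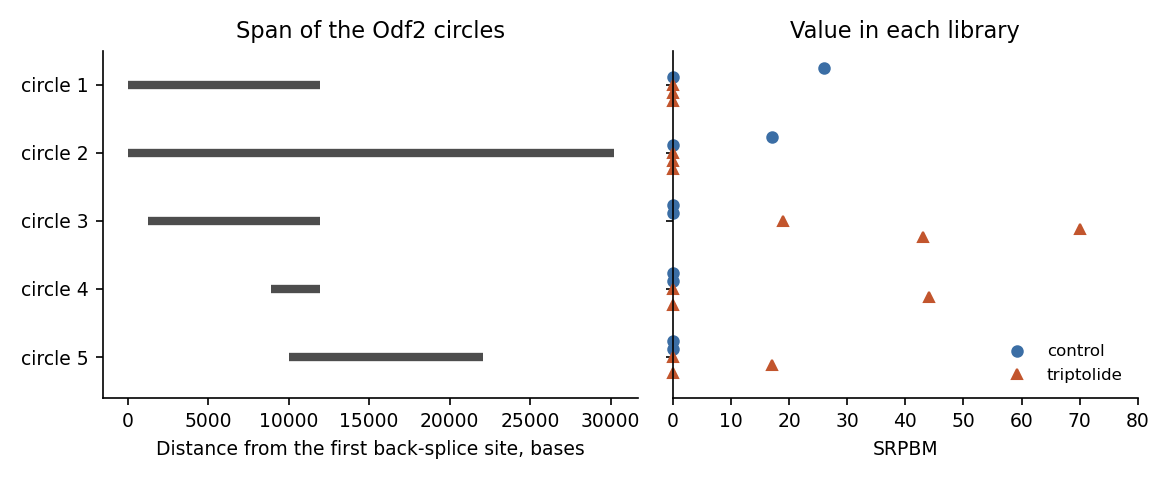
Span of the 5 Odf2 circles along the gene (left, x axis in bases from the first back-splice site) and their SRPBM in each library (right), with controls as blue circles and triptolide as orange triangles. Circle 3, with 19 to 70 SRPBM in the 3 triptolide libraries and 0 in both controls, is the only one above 0 in more than 1 library.

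Summed over its circles, Odf2 had 43 and 0 SRPBM in control 1 and 2 and 19, 131 and 43 in triptolide A, B and C. The groups overlapped, and triptolide B held 15 of the 27 reads. limma gave a log2 fold change of 1.13 ± 0.90 (SE) and adjusted p = 0.80 over 2342 host genes, of which 0% passed and 6.28% had an unadjusted p under 0.05. It was 0.19 without control 2 and 0.56 without triptolide B. Odf2 gave more distinct circles than most hosts, since 82.6% of 3496 host genes had fewer than 5, and 69.5% had fewer reads.

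Circles of the other genes in the 6 lists gave 14 tested host genes, of which 0 passed in limma and 2 had an unadjusted p under 0.05. Hk1, the hexokinase that sperm carry in the fibrous sheath, had 28, 114 and 51 SRPBM in triptolide A, B and C and was listed at 0 in the controls (adjusted p = 0.75, limma). Groups without overlap in this direction were found at 7.13% of tested host genes. Ldha and Pfkm, of lactate dehydrogenase and phosphofructokinase, were listed at 0 in the controls too. In triptolide A, B and C, Ldha had 19, 0 and 87 SRPBM and Pfkm 0, 17 and 26 SRPBM. Their groups overlapped at 0 (adjusted p = 0.77 for both, limma), and the share of host genes at 0 in both controls was not counted. Slc16a7, a lactate and pyruvate transporter, had 52 and 107 against 47, 0 and 34 SRPBM. Prm2, the protamine 2 gene of the late spermatid list, was the other, at 703 and 290 against 86, 79 and 52 SRPBM (adjusted p = 0.75, limma). Its groups did not overlap, as at 11.5% of tested host genes in that direction.

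In the fibrous sheath list, the circles of Fsip2, a large fibrous sheath protein, summed to 78 and 155 against 229, 105 and 121 SRPBM. Those of Fsip1 summed to 157 and 205 against 161, 344 and 165 SRPBM. The groups overlapped for both genes, with adjusted p of 0.95 and 0.97 in limma. In the outer dense fibre list, Spag5, which encodes a spindle protein that binds an outer dense fibre protein, had 0 and 207 against 239, 177 and 156 SRPBM from 1 circle, and the Odf2-like gene Odf2l had 17 and 24 against 19, 26 and 17 SRPBM. Adcy10, the soluble adenylyl cyclase that feeds protein kinase A in sperm, had 191 and 139 against 38, 122 and 137 SRPBM. Its triptolide values lay below both controls, as at 11.5% of tested host genes. The nearest values, 139 in control 2 and 137 in triptolide C, are closer than 1 read is worth. Spata6, needed for the head to tail junction, had 225 and 246 against 228, 141 and 155 SRPBM, Nphp4, a ciliary protein, 43 and 49 against 76, 70 and 26 SRPBM, and the kinase anchor Akap10 69 and 48 against 94, 70 and 60 SRPBM. Adjusted p in limma was 0.77 for Spag5 and Adcy10, 0.81 for Spata6, 0.97 for Akap10, 0.98 for Nphp4 and 0.999 for Odf2l.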

How the data were processed

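Whole-testis RNA of 2 control and 3 triptolide libraries was analysed from 3 deposited tables. Per the labels' protocols, ribosomal RNA was depleted and strand-specific libraries were read as pairs of 150 bases. Per the submitters' processing notes, HISAT2 2.0.1, HTSeq 0.6.1, DESeq and bedtools 2.17.0 were used, with no role stated. The lncRNA and mRNA tables hold expected counts and FPKM per transcript, per the file headers. SRPBM, the circRNA measure, is a score that the authors rounded to whole numbers; what a 0 means is not stated. The lowest value was 2 reads, and 93.6% to 97.7% of entries above 0 came within 0.1 of a whole read. Columns were matched by header: 2 lncRNA and 3 circRNA columns share a header and entered as unnumbered triptolide libraries. A further 3 lncRNA FPKM columns were not used. The mRNA table pairs no transcript with a gene and served only for fragment length, using FPKM over 20 at spans of 800 to 20000 bases.

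Expected counts were rounded, summed per locus, filtered with filterByExpr, scaled by TMM and compared by the quasi-likelihood F test of edgeR 4.0.16 in R 4.3.3 (Benjamini-Hochberg, threshold 0.05). SEs come from the F statistic. CPM uses library totals of the lncRNA table. Circles and host gene sums were compared by limma 3.58.1, with a mean trend, as log2(SRPBM + 16) where 2 or more libraries were above 0, a scale that understates changes of low circles. On simulated data, the locus test recovered most of the larger and a minority of the smaller changes, while the circle and host gene tests recovered none, so a circle that did not pass is no evidence of no change. All member loci and circles are named; list genes are named if past the threshold or, per list, if among the 2 smallest p, with Tnp2, Ldha, Aldoa, Armc12, Pfkm and Odf2l added after their values were seen. Members and lists were chosen with earlier results of these data known. Sequences are from RefSeq (GRCm38.p6). Alternatives were other scalings, filters, pseudocounts and tools, and leaving out each library.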

Additional observations from a re-analysis of the deposited data

How the results depend on the processing

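The Smcp antisense and Gapdhs intronic loci had positive log2 fold changes under every alternative run, from 1.38 to 2.10 and from 1.10 to 1.59 with 1 library left out and from 1.62 to 1.77 and from 1.17 to 1.29 otherwise. The calls held under each scaling and filter and under limma in place of edgeR. Of all lncRNA loci, 269 to 588 passed in edgeR with 1 library left out, against 501 with all. The low value came without control 1 or triptolide 3, and 279 passed without triptolide A. Tested as single transcripts, 0 of 13534 passed in edgeR, with 1339 at an unadjusted p under 0.05. The cause was not tested. The Smcp antisense and Gapdhs intronic loci hold 1 transcript each, so their counts were the same in both tests. The Gapdhs call was lost with DESeq2. The log2 fold change at Spata18 ranged from -0.884 to 0.023 with 1 library left out, turning positive without control 2. Among circles, 36 passed with no filter and 1 when only circles above 0 in all 5 libraries were kept, against 0, and 0 to 130 passed with 1 library left out, the high value without control 2 and 2 without control 1. Among host genes 1 passed with no filter, and 0 to 48 with 1 library left out, the high value again without control 2. edgeR on recovered reads called 0 of 928 circles, 31 at an unadjusted p under 0.05, and 0 of 848 host genes, 38 at that level. Odf2 values did not pass under the alternatives run. That says nothing of stability, since the circle tests recovered none of the changes in the simulated data. Upper-quartile scaling and a robust spread estimate were chosen after seeing the data and changed no call at the 5 loci. No paired analysis was possible because the lncRNA and circRNA columns of the triptolide libraries carry repeated or unmatched numbers. Library totals of the mRNA and lncRNA tables together were not run as a scaling for the same reason. Depth limits these results: the 5 loci had 61 to 202 counts each and Odf2 circles 27 reads in all, so changes well above their standard errors could be missed.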
